A study of Mus musculus with 12 samples.

Results

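The lymphocyte marker genes described here are 10 genes of T cells, cytotoxic cells and B cells, measured by RNA-seq in mouse epididymal white adipose tissue (eWAT). They were chosen by name, as the rows of the gene expression table whose mouse Ensembl identifier maps to Cd3d, Cd3e, Cd3g, Lck, Cd4, Cd8a, Nkg7, Cd79a, Cd79b or Ms4a1, and no threshold on a measured value enters that rule. All 10 were found among the 23474 genes of the table. Levels are in FPKM, the number of sequenced fragments divided by transcript length in kilobases and by library size in units of 1000000 fragments.

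The study followed male C57BL/6J mice that were fed 1 of 4 diets for 12 weeks and were 17 weeks old at the end. The groups were a normal diet (ND), a high-fat diet (HFD), the same high-fat diet to which an ethanol extract of green tea was added at 0.25% (w/w) (GT), and the same high-fat diet with 3% (w/w) Taeeumjowitang (TJ), a traditional Korean herbal prescription. The GT and TJ mice therefore ate the high-fat diet as well. Each group had 3 libraries, stated for HFD and TJ to be from 3 mice picked at random out of the group. The sources used here do not say this for ND and GT, where p-values measure only the spread between libraries.

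T cells recognise antigen with a T cell receptor that has almost no signalling tail of its own. It depends on the CD3 chains, whose tails are phosphorylated on paired tyrosines by the kinase Lck, which is carried to the receptor by the co-receptors CD4 and CD8. B cells use the same principle: membrane immunoglobulin signals through CD79a and CD79b. In adipose tissue, lymphocytes are a minority beside macrophages, adipocytes and vascular cells, and both T and B cells have been studied there in connection with obesity.

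The coding sequence shows what the receptor members share beyond their use as markers. In 5 of the 10 members (Cd3d, Cd3e, Cd3g, Cd79a and Cd79b) the reading frame held a tyrosine pair of the kind these receptors signal through. The pair was searched as a tyrosine codon, 2 codons of any kind and a leucine or isoleucine codon. After 6 to 8 codons of any kind the same arrangement had to follow again. In each of the 5 members 7 codons lay between. The stretches are shown because this pair is the element through which both kinds of receptor signal, and kinases of the Src family, Lck among them in T cells, act on it. The sequences are from the GENCODE M21 transcripts of the mouse build GRCm38, in the reading direction, with the 2 tyrosine codons of the searched pair in capitals (other tyrosine codons are in lower case). The coordinates run from the first to the last base of the stretch and include the intron that splits each of them:
Cd3d, chr9:44986095-44986311, plus strand, exons 4 and 5 of 5: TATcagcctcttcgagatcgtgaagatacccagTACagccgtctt
Cd3e, chr9:44999549-45000440, minus strand, exons 7 and 8 of 8: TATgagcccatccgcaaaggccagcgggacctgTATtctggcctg
Cd3g, chr9:44970735-44971268, minus strand, exons 5 and 6 of 7: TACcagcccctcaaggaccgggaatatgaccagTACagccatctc
Cd79a, chr7:24901296-24901469, plus strand, exons 4 and 5 of 5: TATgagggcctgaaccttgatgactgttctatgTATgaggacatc
Cd79b, chr11:106311867-106312012, minus strand, exons 5 and 6 of 6: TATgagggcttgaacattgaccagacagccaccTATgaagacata

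The same search matched 621 of 21525 protein-coding genes (2.885%), so a match is a description of these letters and not evidence of signalling. The 2 co-receptors share another short element. Cd4 and Cd8a each held a pair of cysteine codons separated by 1 codon and followed by proline, the clasp by which the co-receptor tails hold Lck. The clasp is shown with the cysteine codons in capitals:
Cd4, chr6:124866269-124866626, minus strand, exons 9 and 10 of 10: aagaagaccTGCcagTGCccccaccggatg
Cd8a, chr6:71375896-71376866, plus strand, exons 4 and 5 of 5: aagcgtgttTGCaaaTGTcccaggccgcta

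The clasp pattern alone matched 532 of the 21525 genes (2.4715%). The genes Cd3g, Cd3d and Cd3e are neighbours on chromosome 9, at 44969572 to 44980431 (minus strand), 44981786 to 44987339 (plus strand) and 44998740 to 45009627 (minus strand) on GRCm38. Cd4 and Cd8a lie on chromosome 6, Cd79a and Nkg7 on chromosome 7, Lck on chromosome 4, Cd79b on chromosome 11 and Ms4a1 on chromosome 19.

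ND replicate 1 stood apart from the other 11 libraries, and fold changes and calls in HFD against ND are given with and without it. A list of 8 testis germ cell genes made up 9.58% of its summed FPKM against at most 0.513% in any other library, and a list of 9 epididymis genes made up 1.92% against at most 0.239%. Its summed level of 8 adipocyte genes was 3825 FPKM, against 16608 to 57729 FPKM in the other libraries, so it went against its tissue label. The depth behind the FPKM values, estimated from their steps and given in units of 1000000 fragments, was 9.97 to 15.8 in ND, 14.3 to 18.6 in HFD, 15.8 to 19.8 in GT and 15.9 to 17.3 in TJ.

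The markers were scarce in every group. Ms4a1, which encodes the B cell surface protein CD20, was listed at 0 FPKM in all 12 libraries, as were 2282 genes in total, among them the widely used ribosome-related gene Rpl7l1, so the value is reported only as listed. Cd8a also stayed under 1 FPKM in all 12 libraries, and Cd4 reached 1 FPKM in 1 library, GT replicate 2, at 1.09 FPKM. Cd3d, Cd3e and Cd79a reached 1 FPKM in 3 libraries each, Cd3g in 6, and Lck and Nkg7 in 10. Cd79b was the member at or above 1 FPKM in all 12. At these depths the levels rest on few fragments per library, about 2.80 to 22.7 for Cd8a, 3.96 to 40.8 for Cd3d, 4.68 to 26.6 for Cd3e, 6.30 to 33.9 for Cd3g, 30.0 to 138 for Lck and 27.0 to 122 for Cd79b. These fragment numbers cover counting error only and are estimates.

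**Figure D1:**
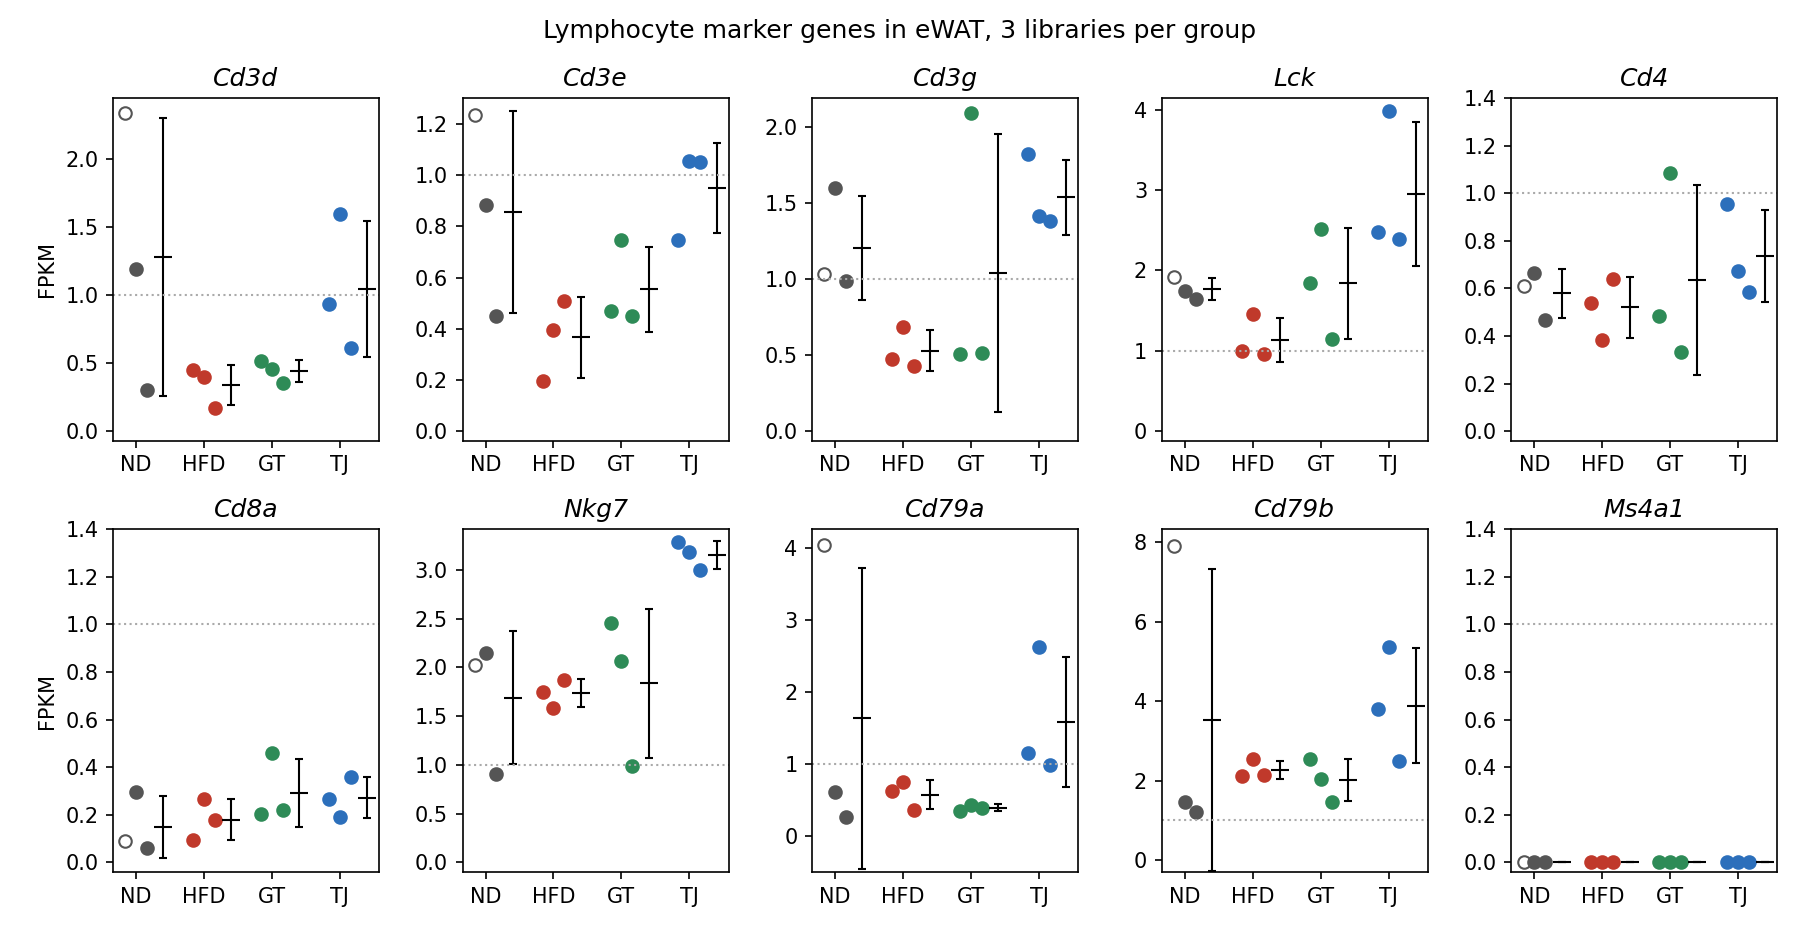
Level of each of the 10 genes in FPKM (vertical axis, linear, a separate scale for each gene) in the 3 libraries of ND, HFD, GT and TJ. Points are libraries, the open point is ND replicate 1, the black bar and whiskers are the mean ± SD of all 3 libraries, and the dotted line is 1 FPKM. The 3 TJ libraries lie above the 3 HFD libraries for Cd3d, Cd3e, Cd3g, Lck, Nkg7 and Cd79a, and Ms4a1 is at 0 throughout.

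The CD3 chains are the invariant part of the T cell receptor and are the usual definition of a T cell. Cd3g measured 1.03, 1.60 and 0.990 FPKM in ND replicates 1 to 3, 0.478, 0.682 and 0.429 in HFD, 0.508, 2.09 and 0.517 in GT, and 1.82, 1.42 and 1.38 in TJ. The HFD libraries lay below every ND and TJ library, and GT held 2 libraries inside the HFD range and 1 above every other library. Cd3d measured 2.34, 1.19 and 0.303 FPKM in ND, 0.446, 0.396 and 0.171 in HFD, 0.515, 0.456 and 0.354 in GT, and 0.937, 1.59 and 0.608 in TJ. The 3 TJ libraries lay above all HFD and GT libraries, while ND spread from the HFD range to above every TJ library. Cd3e measured 1.24, 0.882 and 0.449 FPKM in ND, 0.197, 0.395 and 0.509 in HFD, 0.470, 0.747 and 0.448 in GT, and 0.748, 1.06 and 1.05 in TJ. Again every TJ library lay above every HFD and GT library, the closest pair being 0.748 FPKM in TJ replicate 1 and 0.747 FPKM in GT replicate 2.

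Lck, the kinase that phosphorylates the CD3 tails, was the T cell member with the highest median level. Its values were 1.92, 1.74 and 1.65 FPKM in ND, 0.998, 1.46 and 0.958 in HFD, 1.85, 2.52 and 1.15 in GT, and 2.48, 3.99 and 2.39 in TJ. HFD lay below ND and below TJ without overlap, and GT spread from the HFD range into the TJ range. The co-receptors, which divide T cells into helper and cytotoxic classes, did not separate the groups. Cd4 measured 0.609, 0.664 and 0.466 FPKM in ND, 0.540, 0.383 and 0.638 in HFD, 0.484, 1.09 and 0.332 in GT, and 0.953, 0.671 and 0.585 in TJ. Cd8a measured 0.0898, 0.298 and 0.0600 FPKM in ND, 0.0936, 0.268 and 0.180 in HFD, 0.202, 0.458 and 0.219 in GT, and 0.268, 0.190 and 0.360 in TJ. For both, the group ranges overlapped in each comparison, and GT replicate 2 was the highest library.

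Nkg7 encodes a granule membrane protein of natural killer (NK) cells and cytotoxic T cells. It measured 2.02, 2.14 and 0.903 FPKM in ND, 1.75, 1.58 and 1.87 in HFD, 2.45, 2.06 and 0.986 in GT, and 3.28, 3.18 and 2.99 in TJ. The 3 TJ libraries were close together and above the other 9 libraries. HFD lay inside the ND range.

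Cd79a and Cd79b encode the paired signalling chains of the B cell receptor. Cd79a measured 4.03, 0.605 and 0.260 FPKM in ND, 0.623, 0.747 and 0.356 in HFD, 0.346, 0.437 and 0.393 in GT, and 1.15, 2.63 and 0.979 in TJ. Cd79b measured 7.92, 1.46 and 1.20 FPKM in ND, 2.11, 2.53 and 2.15 in HFD, 2.54, 2.03 and 1.47 in GT, and 3.81, 5.37 and 2.48 in TJ. ND replicate 1, the library with germ cell and epididymis transcripts, was the highest of all 12 for both genes, and the other 2 ND libraries lay below every TJ library. TJ replicate 2 was the highest library outside ND.

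Over the 9 members above 0, TJ had the highest group mean for 6 (Cd3e, Cd3g, Lck, Cd4, Nkg7 and Cd79b), ND for Cd3d and Cd79a, and GT for Cd8a. With ND replicate 1 left out, TJ had the highest mean for 8 of the 9, with Cd8a again highest in GT. HFD had the lowest mean for 5 of the 6 T cell genes (Cd3d, Cd3e, Cd3g, Lck and Cd4) and ND for the sixth, Cd8a, with or without that library. Neighbours in this order mostly overlapped: for Lck the order was TJ, GT, ND, HFD, and the GT libraries overlapped all 3 other groups, whereas TJ did not overlap ND or HFD. For Nkg7 the order was TJ, GT, HFD, ND, and the last 3 overlapped one another. For Cd3g the order was TJ, ND, GT, HFD, and TJ overlapped ND and GT. In whole tissue RNA, fewer cells of a type and less RNA per cell cannot be told apart.

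TJ against HFD asks whether the herbal prescription changed the tissue under the same high-fat diet. The markers that separated were higher in TJ. For 6 of the 10 genes (Cd3d, Cd3e, Cd3g, Lck, Nkg7 and Cd79a) all TJ libraries lay above all HFD libraries, and for none did they lie below. Over all genes averaging 1 FPKM or more, 20.1% had TJ above HFD without overlap, and over genes with a mean of 0.1 to 5 FPKM, the range of these members, 9.53% did. The group means were 1.05 ± 0.50 FPKM in TJ and 0.337 ± 0.147 in HFD for Cd3d, a ratio of 3.10, and 1.54 ± 0.246 and 0.530 ± 0.134 for Cd3g, a ratio of 2.91 (SD, n = 3). The ratio was 2.60 for Cd3e (0.952 ± 0.176 against 0.367 ± 0.158 FPKM) and also 2.60 for Lck (2.95 ± 0.900 against 1.14 ± 0.277 FPKM). It was 2.75 for Cd79a (1.58 ± 0.906 against 0.575 ± 0.20 FPKM) and 1.82 for Nkg7 (3.15 ± 0.145 against 1.73 ± 0.142 FPKM). Each of these 6 differences had p = 0.1 in a two-sided exact permutation test, the smallest p that 3 against 3 libraries can give. Cd79b (3.89 ± 1.45 against 2.26 ± 0.231 FPKM), Cd4 and Cd8a overlapped between the groups, with p = 0.2 each in the exact permutation test.

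The fit over all genes (limma on log2(FPKM + 1), genes averaging 1 FPKM or more, called at a Benjamini-Hochberg adjusted p under 0.05 and a fold of at least 1.5) could include 5 of the 10 members. A fold change on this scale understates the change of genes near 1 FPKM. Lck rose by 0.87 on the log2 scale (SE 0.23, adjusted p = 0.0432) and Nkg7 by 0.60 (SE 0.16, adjusted p = 0.0436). Cd3g was higher by 0.73 (SE 0.23, adjusted p = 0.0626), Cd79a by 0.67 (SE 0.31, adjusted p = 0.148) and Cd79b by 0.54 (SE 0.24, adjusted p = 0.136), none of which passed. So 2 members were called higher, where 7.41% of the 12807 genes tested were called higher and 18.5% in either direction. Cd3g and Cd79a averaged under 1 FPKM in HFD and entered the fit only through TJ, the group where they were high, so the number of positive values among the 5 is partly set by the filter. With genes of a mean of at least 0.1 FPKM in the fit, 9 members could be tested, and Cd3g (adjusted p = 0.0391), Lck (0.0485) and Nkg7 (0.0436) were called, while Cd3e (0.0689), Cd79a (0.126), Cd3d (0.101), Cd79b (0.162), Cd4 (0.374) and Cd8a (0.533) were not. The median log2 fold change of the 9 was 0.59, and that of all 16480 genes in this fit -0.14.

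The calls on Lck and Nkg7 lay close to the threshold. Leaving out any 1 of the 6 libraries moved the adjusted p of Nkg7 above it, to between 0.0579 (without TJ replicate 3) and 0.135 (without TJ replicate 1), and that of Lck in 5 of the 6 cases, to as much as 0.141 (without HFD replicate 3), with Lck at 0.0464 without TJ replicate 3. Without any 1 HFD replicate or without TJ replicate 1, 0 of all genes tested were called, so the loss in those cases is not particular to these members. Across genes, the TJ against HFD fold change also fell with transcript length (Spearman rho = -0.357 over 12725 genes), and Nkg7 has the shortest transcript of the members, 881 nt, and Lck one of 2185 nt. With that trend removed, an alternative added once the data had been seen, Lck was 0.79 (adjusted p = 0.0689), Nkg7 0.24 (0.355), Cd3g 0.40 (0.299), Cd79a 0.43 and Cd79b 0.30, all still positive and none called.

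**Figure D2:**
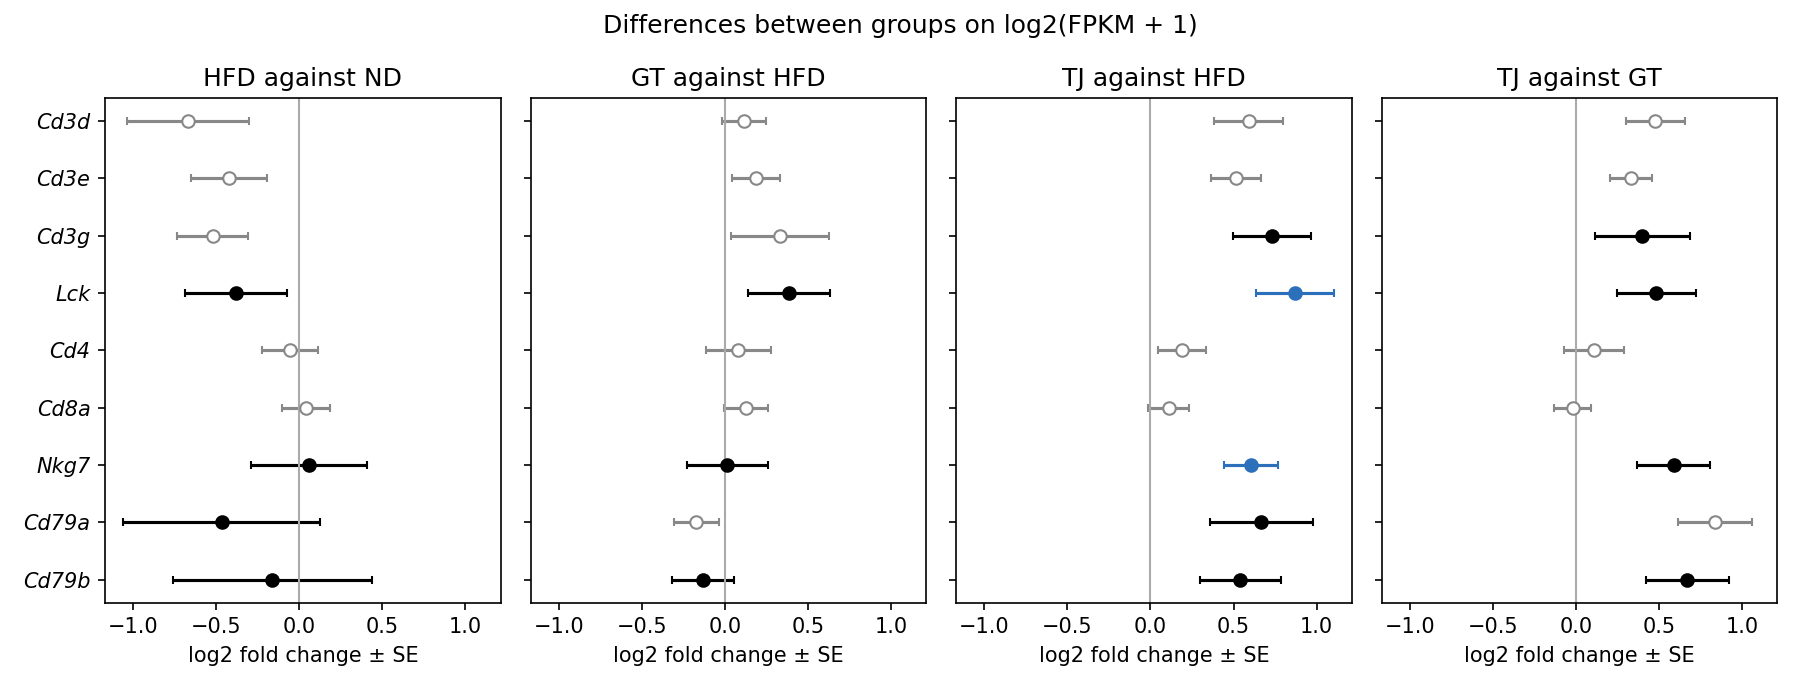
Log2 fold change on log2(FPKM + 1) (horizontal axis) of the 9 members above 0 in 4 comparisons, with bars for the standard error. Filled blue points were called, filled black points were tested and not called, and open grey points were under the mean of 1 FPKM and take their value from the fit with a mean of at least 0.1 FPKM. In TJ against HFD all 9 points are above 0 and Lck and Nkg7 are blue.

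HFD against ND asks what the high-fat diet did to the tissue. Cd3g and Lck were lower in every HFD library than in every ND library, and no member was called. The group means were 0.530 ± 0.134 FPKM in HFD and 1.21 ± 0.343 in ND for Cd3g, a ratio of 0.439, and 1.14 ± 0.277 and 1.77 ± 0.139 for Lck, a ratio of 0.643 (SD, n = 3, p = 0.1 each, the smallest possible, two-sided exact permutation test). Over all genes averaging 1 FPKM or more, 5.89% had HFD below ND without overlap, and 7.15% of genes with a mean of 0.1 to 5 FPKM. With ND replicate 1 left out the same 2 genes stayed below ND, where 19.2% of genes averaging 1 FPKM or more then did, and Cd79b moved to the other side, with all HFD libraries above the other 2 ND libraries, as in 28.0% of those genes. The separation of Cd3g and Lck was lost under quantile normalization. Cd3d (0.337 ± 0.147 against 1.28 ± 1.02 FPKM), Cd3e (0.367 ± 0.158 against 0.855 ± 0.394 FPKM) and the remaining members overlapped between the diets. The labels do not pair the libraries, and the tests above did not use pairs. Deviations of same-numbered HFD and ND libraries over all genes correlated at 0.547, 0.342 and 0.122. HFD replicate 3 correlated better with ND replicate 2 (0.626), so a pairing by number is uncertain. Compared by number, Cd3d, Cd3g and Lck were each lower in HFD in 3 of 3 pairs. Cd3e, Cd4 and Nkg7 were lower in 2 of 3, and Cd8a, Cd79a and Cd79b in 1 of 3. Over all genes averaging 1 FPKM or more, 18.1% were lower in 3 of 3 pairs. Without the pair that holds ND replicate 1, Cd3d, Cd3g and Lck were lower in 2 of 2, as were 32.8% of all genes, Cd3e, Cd4, Nkg7 and Cd8a in 1 of 2, and Cd79a and Cd79b in 0 of 2. With the pairs as a block in the fit, 0 of all 14430 genes were called, so it tells nothing of the members.

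In the limma fit of HFD against ND, 4 members could be tested and 0 were called, with 0 at an unadjusted p under 0.05, where 1.77% of the 14430 genes tested were called. The log2 fold changes were -0.38 for Lck (SE 0.31, adjusted p = 0.546), -0.47 for Cd79a (SE 0.59), -0.16 for Cd79b (SE 0.60) and 0.06 for Nkg7 (SE 0.35). The SD of the 3 ND libraries was 3.8 FPKM for Cd79b and 2.09 FPKM for Cd79a. Cd79a averaged under 1 FPKM in HFD and entered this fit only through ND. Across genes, the fold change rose with transcript length (Spearman rho = 0.266 over 14312 genes). With that trend removed, Nkg7 was 0.99 (unadjusted p = 0.0257, adjusted p = 0.260), Lck -0.27, Cd79a -0.03 and Cd79b 0.30, and 0 were called. Cd3g, with a transcript of 1023 nt, was not in this fit. Without ND replicate 1, 0 of 3 tested members were called, where 15.4% of genes were called. Lck was then -0.34 (adjusted p = 0.515), Nkg7 0.16 (adjusted p = 0.776) and Cd79b 0.48 (adjusted p = 0.287). Cd79b had been -0.16 with the library in and the length trend kept.

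GT against HFD asks the same of the green tea extract. All 10 members overlapped between GT and HFD, and 0 of the 3 tested members were called (0 at an unadjusted p under 0.05, limma), where 3.63% of 12766 genes were called. No overlap with GT higher was found in 12.3% of genes averaging 1 FPKM or more and with GT lower in 24.4%. Lck was 0.39 (SE 0.25, adjusted p = 0.329), with means of 1.84 ± 0.687 and 1.14 ± 0.277 FPKM, Nkg7 was 0.02 (SE 0.24) and Cd79b was -0.13 (SE 0.19). GT replicate 2 was the highest of the GT libraries for Cd3e, Cd3g, Lck, Cd4, Cd8a and Cd79a, and the spread within GT was as large as its distance from HFD for Cd3g (1.04 ± 0.913 against 0.530 ± 0.134 FPKM).

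TJ against GT compares the 2 additions on the same high-fat diet. These libraries also enter the comparisons with HFD, so they are no independent check of them. All TJ libraries lay above all GT libraries for Cd3d (ratio of means 2.37), Cd3e (1.72), Nkg7 (1.72) and Cd79a (4.04), each with p = 0.1 in the two-sided exact permutation test. Over genes averaging 1 FPKM or more, 19.5% had TJ above GT without overlap, and 12.3% of genes with a mean of 0.1 to 5 FPKM. In the limma fit 0 of 4 tested members were called and 2 had an unadjusted p under 0.05, where 0.148% of 12187 genes were called. Cd79b was higher by 0.67 (SE 0.25, adjusted p = 0.170), Nkg7 by 0.59 (SE 0.22, adjusted p = 0.171), Lck by 0.48 (SE 0.24, adjusted p = 0.241) and Cd3g by 0.40 (SE 0.29, adjusted p = 0.379). Longer transcripts had lower fold changes here, as in TJ against HFD (Spearman rho = -0.524 over 12108 genes). With the trend removed Lck was 0.37 (adjusted p = 0.448), Cd79b 0.36 (adjusted p = 0.474), Nkg7 0.06 and Cd3g -0.07.

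Against ND, the TJ libraries were higher without overlap for Lck (2.95 ± 0.900 against 1.77 ± 0.139 FPKM, ratio 1.67) and Nkg7 (3.15 ± 0.145 against 1.69 ± 0.684 FPKM, ratio 1.86), where 12.5% of genes averaging 1 FPKM or more were. Without ND replicate 1, Cd79a and Cd79b joined them, where 22.1% of genes then were.

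Other genes of the same cell types were followed in companion lists. Of the 25 T cell genes listed, 12 stayed under 1 FPKM in all 12 libraries, among them Foxp3, the factor of regulatory T cells, which ranged from 0.033 to 0.332 FPKM. In TJ against HFD, 8 T cell genes could be tested, of which 2 rose and 1 fell. Trbc1, Trbc2 and Cd27 averaged under 1 FPKM in HFD and could be tested only through TJ, so the counts among these 8 are partly set by the filter. With genes of a mean of at least 0.1 FPKM in the fit, 23 of the list could be tested, 15 had higher values in TJ, and the median log2 fold change was 0.12. Of these 23, 1 was called higher, Trbc2 (adjusted p = 0.0352), and 0 lower. Cd247 and Il7r (adjusted p = 0.0686) were not called at that filter. Trbc2, a constant segment of the T cell receptor beta chain, rose by 1.30 (adjusted p = 0.0284), from 0.550, 0.484 and 0.616 FPKM in HFD to 2.32, 4.35 and 2.1 in TJ. It is nearly identical to Trbc1, which was higher by 0.87 (adjusted p = 0.0694), so the division of reads between the pair is uncertain. Cd247, the zeta chain of the T cell receptor complex, rose by 0.73 (adjusted p = 0.0405), from 2.39, 2.38 and 2.63 FPKM to 3.91, 6.19 and 4.36. All TJ libraries lay above all HFD libraries for these 3 receptor genes, where 20.1% of genes averaging 1 FPKM or more did, and 7.41% of the genes tested were called higher. Of the 8 tested T cell genes 5 had higher values in TJ and 3 lower ones. Besides Il7r, the lower ones were Trac, the constant segment of the receptor alpha chain, at -0.39 (adjusted p = 0.267), with 6.50, 7.14 and 3.50 FPKM in HFD and 3.21, 4.12 and 4.61 in TJ, and Lat, an adaptor of receptor signalling, at -0.18 (adjusted p = 0.505). With the trend with transcript length removed, Cd247 was still called at 0.76 (adjusted p = 0.044), and Trbc2 was 0.90 (adjusted p = 0.0763) and not called.

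Il7r went the other way and on another scale. It encodes the interleukin 7 receptor alpha chain, and measured 0.0515, 0.632 and 0.926 FPKM in ND, 41.1, 41.9 and 54.0 in HFD, 30.7, 21.6 and 9.91 in GT, and 16.2, 1.56 and 13.8 in TJ. It rose by 4.96 on the log2 scale in HFD against ND (adjusted p = 0.00683) and fell by 2.42 in TJ against HFD (adjusted p = 0.0477; 0.0641 with the length trend removed), while the CD3 genes had their lowest group means in HFD. In HFD against ND it was the 1 call among 10 T cell genes tested, whose lowest was Trbc2 at -1.34 (adjusted p = 0.472). Il7r passed the 1 FPKM filter only through HFD, and 5 of the 10, Trbc2 among them, only through ND. Without ND replicate 1 it was again the 1 call, at 4.71 (adjusted p = 0.000707), among 8 tested, with Trbc2 the lowest at -0.84 (adjusted p = 0.339). In GT against HFD the 7 tested T cell genes ran from -1.22 (Il7r) to 0.67 (Cd27), and in TJ against GT the 9 tested ran from -1.20 (Il7r) to 0.86 (Trbc1), with 0 calls in either. Cd27 passed the filter in the first of these only through GT, and Trbc1 in the second only through TJ.

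Of the 17 NK and cytotoxic genes, 7 could be tested in TJ against HFD and 1 rose, where 7.41% of all genes tested were called higher. This was Ccl5, a chemokine made by T and NK cells among others, which was 7.25, 7.76 and 6.53 FPKM in HFD and 11.8, 14.4 and 12.5 in TJ, a rise of 0.76 (adjusted p = 0.0247). With the length trend removed it was 0.37 (adjusted p = 0.103) and not called. The lowest was Klrb1c at -0.07, and with genes of a mean of at least 0.1 FPKM in the fit the median of all 17 was 0.13. The granule protease gene Gzma measured 1.02, 2.05 and 1.64 FPKM in HFD and 2.47, 2.72 and 3.05 in TJ, above HFD in every TJ library, as were 20.1% of genes averaging 1 FPKM or more, and was higher by 0.56 in the fit (adjusted p = 0.0986), while the granule protease genes Gzmb and Gzmk and the pore-forming Prf1 were under 1 FPKM in all 12 libraries. In HFD against ND the 6 tested ran from -0.85 (Klrb1c) to 0.67 (Klrd1), in GT against HFD the 5 tested ran from -0.22 (Klrd1) to 0.44 (Gzma), and in TJ against GT the 6 tested ran from -0.34 (Il2rb) to 0.48 (Klrd1), with 0 calls in these 3. In HFD against ND, Klrd1 passed the filter only through HFD. Klrb1c was not among the 5 tested in HFD against ND without ND replicate 1, which ran from 0.04 (Klrk1) to 0.79 (Ccl5), with 0 calls.

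The called genes of the B cell list were lower in TJ, where Cd79a and Cd79b had higher values than in HFD. In TJ against HFD 0 of its 9 tested genes rose and 4 fell, where 11.1% of all genes tested were called lower. With genes of a mean of at least 0.1 FPKM in the fit, 19 of the list could be tested, 2 fell, 12 had higher values in TJ, and the median was 0.11. Cd72, a surface co-receptor, fell by 2.0 (adjusted p = 0.0196), from 61.4, 52.1 and 70.1 FPKM in HFD to 19.3, 8.92 and 17.1 in TJ. Blnk, an adaptor of receptor signalling, fell by 1.63 (adjusted p = 0.0436), Cd22, an inhibitory lectin, by 1.16 (adjusted p = 0.0387; 0.0585 with the length trend removed), and Cd37, a tetraspanin of leukocytes, by 1.13 (adjusted p = 0.0317). These 4 genes are not restricted to B cells, and Cd37, Cd72 and Blnk are also known from myeloid cells. The highest of the list was Jchain, the joining chain of secreted antibody, at 0.20 (adjusted p = 0.363). The genes Cr2, Blk, Pou2af1, Spib, Fcer2a, Cxcr5 and Tnfrsf17, which are closer to B lineage cells, were under 1 FPKM in all 12 libraries.

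In HFD against ND, Blnk rose by 3.42 (adjusted p = 0.0096) and Cd22 by 2.05 (adjusted p = 0.0386), the 2 calls among 11 tested B cell genes, whose lowest was Fcmr at -1.35 (adjusted p = 0.536). Cd22 passed the 1 FPKM filter only through HFD, the group where it was high, and Fcmr only through ND. Over all genes tested 1.73% were called higher. With the replicate number as a block, 0 of the 32 companion genes tested in HFD against ND were called, against 3 without it, and 0 of all 14430 genes were. Leaving ND replicate 1 out, 6 were called, 5 of them among the 10 B cell genes then tested, where 15.4% of all genes were called. Blnk (3.45), Cd37 (2.62), Cd22 (2.09) and Ighm (1.16) were then higher and Ebf1 (-1.11, adjusted p = 0.0179) the lowest of the list, and Fcmr was not tested. In GT against HFD the 9 tested B cell genes ran from -1.49 (Cd72, adjusted p = 0.0505) to 0.26 (Ebf1, a factor that adipocytes also use), and in TJ against GT the 8 tested ran from -0.54 (Blnk) to 0.22 (Igkc), with 0 calls in either.

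Genes of lymphoid stroma and homing gave 0 calls in all 4 comparisons. In TJ against HFD the 4 tested ran from -0.06 (Ccl21a) to 0.79 (Ltb, the lymphotoxin beta chain made by lymphocytes, adjusted p = 0.123), and in HFD against ND the 5 tested ran from -0.57 (Ccl21a) to -0.09 (Ccl19). Without ND replicate 1 the 4 tested in HFD against ND ran from -0.77 (Cxcl13) to 0.54 (Ccl19), with 2 of 4 higher and 0 called. Cxcl13 passed the 1 FPKM filter only through ND. With all libraries and the length trend removed, the 5 ran from -0.08 (Ccr7) to 0.96 (Ccl19), with 4 of 5 higher and 0 called. The genes of this list ran from -0.23 (Ccl19) to 0.32 (Ccl21a) in GT against HFD and from -0.39 (Ccl21a) to 0.65 (Ltb) in TJ against GT, with 4 tested in each.

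**Figure D3:**
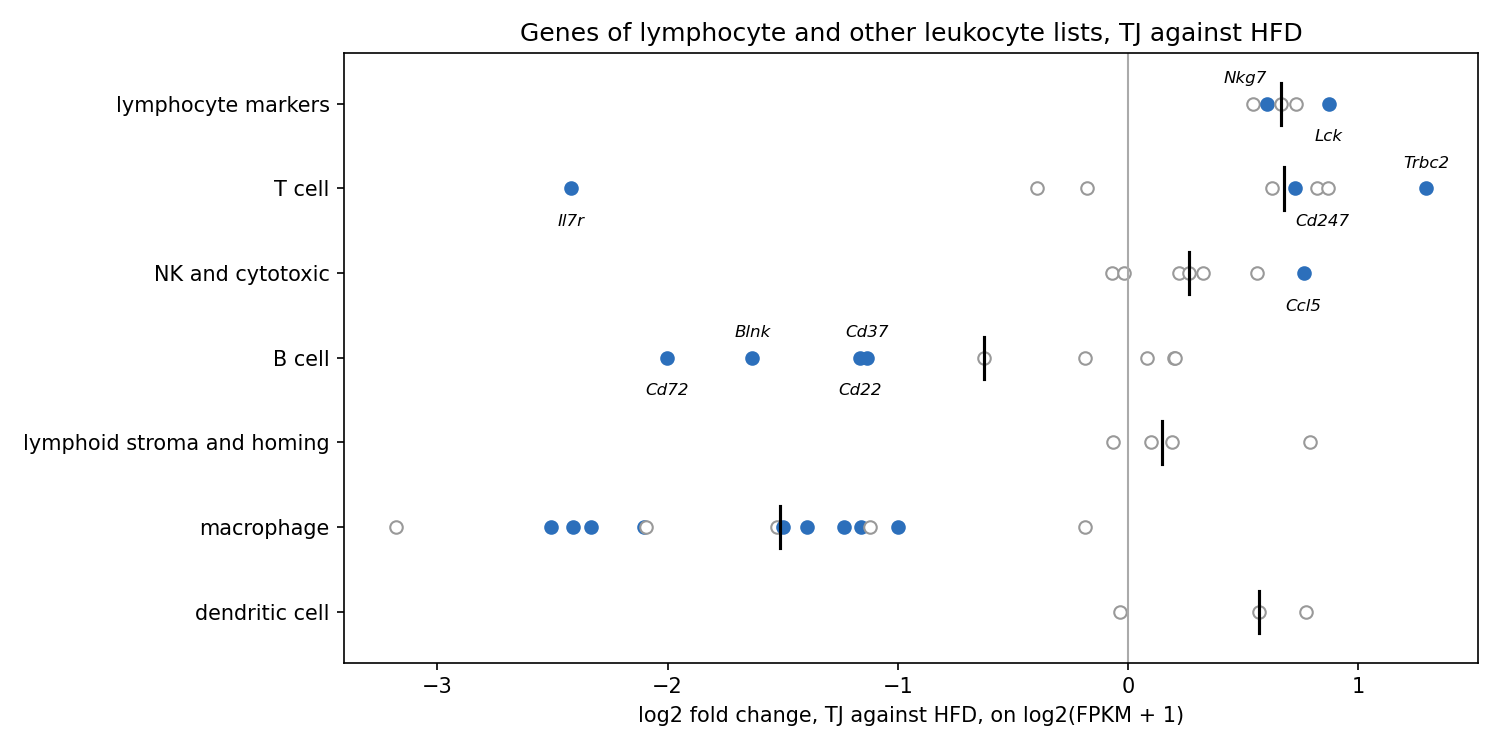
Log2 fold change in TJ against HFD on log2(FPKM + 1) (horizontal axis) of each tested gene of the lymphocyte markers and of 6 leukocyte lists. Filled blue points were called, open grey points were not, and black ticks are medians of the genes drawn. The lymphocyte markers and most of the tested T cell genes lie above 0, Il7r and the 4 called B cell genes lie below 0 with the macrophage genes. Genes averaging under 1 FPKM are not drawn, and Cd3g, Cd79a, Trbc1, Trbc2, Cd27 and Ctsw passed that limit only through TJ.

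In summed FPKM, macrophage genes moved on a far larger scale than the lymphocyte markers. The summed level of 14 macrophage genes was 87.6 to 625 FPKM in ND (512 to 625 without replicate 1), 4033 to 5678 in HFD, 1495 to 3602 in GT and 817 to 2714 in TJ, and all 14 were above 0 in every library. The summed level of the 10 lymphocyte markers was 6.28 to 21.2 FPKM in ND (6.28 to 10.6 without replicate 1), 7.23 to 8.44 in HFD, 5.86 to 11.9 in GT and 12.8 to 20.1 in TJ. In TJ against HFD 9 of the 14 macrophage genes fell and 0 rose, with a median of -1.51, where 11.1% of all genes tested were called lower. With the length trend removed 5 of the 14 were called lower, and the median was -1.45. With genes of a mean of at least 0.1 FPKM in the fit, 3 of the 14 were called lower. TJ replicate 2, with the highest sum of lymphocyte markers in that group, had the lowest macrophage sum and the highest adipocyte sum, 57729 FPKM. The summed adipocyte level was 16608 to 18963 FPKM in HFD and 28469 to 57729 in TJ. FPKM is a share of the library, and the part that the macrophage and adipocyte levels have in the lymphocyte values was not tested.

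**Figure D4:**
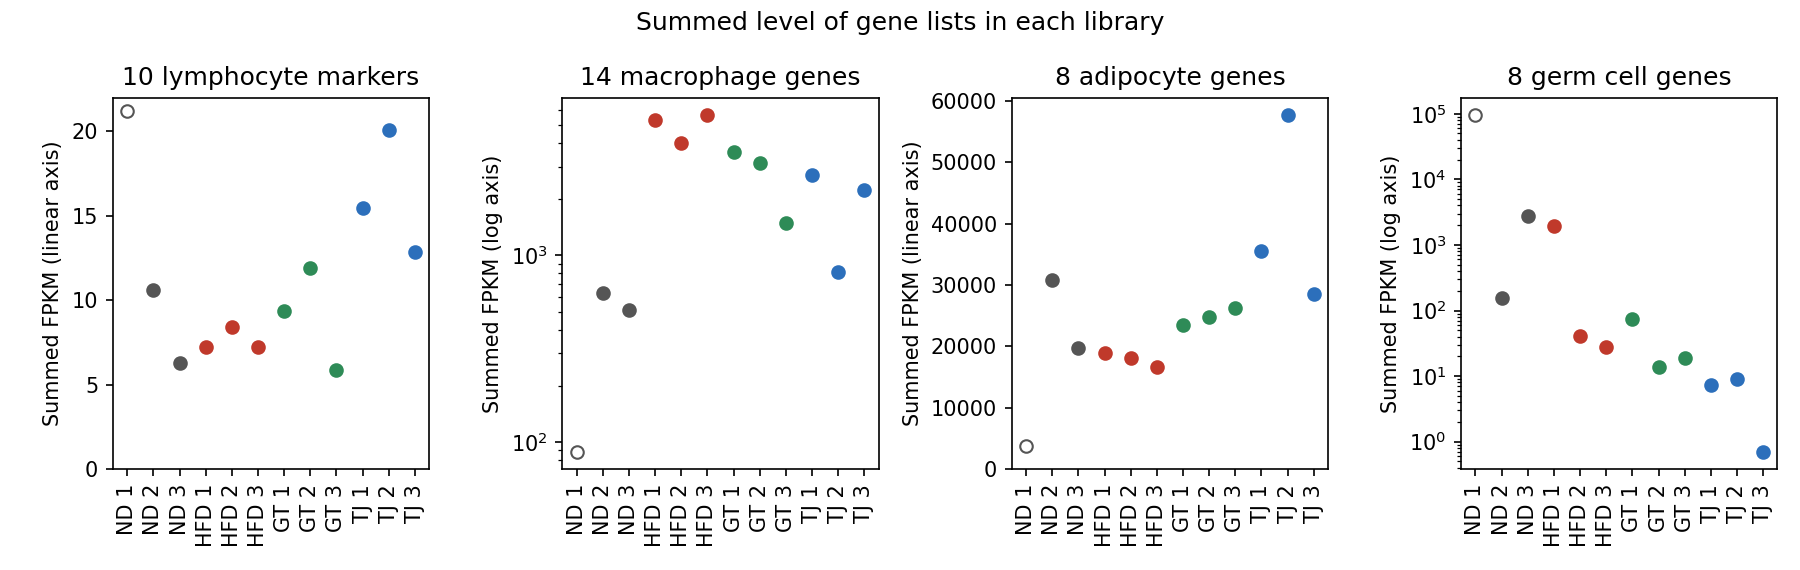
Summed FPKM of the 10 lymphocyte markers (linear axis), 14 macrophage genes (log axis), 8 adipocyte genes (linear axis) and 8 testis germ cell genes (log axis) in each of the 12 libraries, coloured by group. The open point is ND replicate 1, which is the lowest for adipocyte and macrophage genes and the highest for germ cell genes and lymphocyte markers.

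The genes whose pattern over the 12 libraries was most like that of Lck, among 13930 genes averaging 1 FPKM or more, were Prtn3 (Pearson r = 0.893, Spearman rho = 0.832), Gstp2 (0.888, 0.909), Sept1 (0.881, 0.895), an unnamed gene with the identifier ENSMUSG00000087346 (0.880, 0.783) and Tmem222 (0.874, 0.860), on log2(FPKM + 1). Over the other 11 libraries they were Wdr45 (r = 0.912), Gimap3 (0.907), Prtn3 (0.906), Gm12216 (0.904) and Enho (0.902), so Prtn3 stood in both sets. For Cd79b, the B cell member with the highest median level, they included Lamtor4 (r = 0.985, rho = 0.895), Rpl27a (0.982, 0.874), D8Ertd738e (0.980, 0.881) and Rplp1 (0.978, 0.867), and without ND replicate 1 Rpl17 (r = 0.975), Rps16 (0.973), Lamtor4 (0.970), Rpl26 (0.968) and Rps15a (0.966). Several of the genes named for Cd79b encode ribosomal proteins. None of the genes named for either member was on the lymphocyte lists, but this was partly set by the search. The 10 members were left out of it, and 9 of the 25 T cell genes and 10 of the 20 B cell genes averaged 1 FPKM or more. These correlations share the libraries, their scaling and their transcript length trend, and describe the 12 libraries only.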

How the data were processed

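RNA-seq was made from eWAT of 12 libraries, 3 per group. Groups and replicate numbers were taken from the sample titles. The deposited FPKM values are those of the authors, who filtered low-quality reads, mapped them with STAR (2.4.0 in the submitters' processing notes), and estimated gene levels with Cufflinks 2.1.1 and an Ensembl annotation, with noncoding regions masked and corrections for multireads and fragment bias. A human genome is named in the methods, whereas all 23474 identifiers are mouse. GENCODE M21 (GRCm38) gave symbols to 22671 identifiers. No table of read counts was used here, and no counting of strand is given in the sources used here.

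Each pair of groups was fitted with limma 3.58.1 (R 4.3.3, mean-variance trend) on log2(FPKM + 1), over genes averaging 1 FPKM or more in the 6 libraries. Calls needed a Benjamini-Hochberg adjusted p under 0.05 over all genes tested and a fold of at least 1.5. The fit was tested on simulated data. HFD against ND, GT against HFD and TJ against HFD share the HFD libraries. Differences in FPKM were tested with two-sided exact permutation tests (scipy 1.17.1). Depth was estimated from 2315 single-transcript genes of at least 1500 nt. Transcript length is that of the longest protein-coding transcript. All 10 members are named, with, from each companion list, the highest and lowest fold change and every call where 5 or fewer were made, and the 5 genes most correlated with Lck and Cd79b. Other genes named (Trbc1, Trac, Lat, Foxp3, Gzma in TJ against HFD, the B lineage genes and the granule genes under 1 FPKM, and Rpl7l1) were chosen after their values were seen. Some genes that these rules would name are not reported here.

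The members and lists were chosen with earlier results of these data known. Same-numbered HFD and ND libraries had positive correlations of their deviations (0.547, 0.342 and 0.122), so their numbers were also compared as pairs. This rests on the data and not on the labels. It is uncertain, since HFD replicate 3 correlated better with ND replicate 2 (0.626). Alternatives were another pseudocount, filter, scaling, moderation and call rule, all libraries in 1 fit, a replicate block and leaving out each library. Removal of the length trend, list medians with the lower filter, the direction within HFD and ND pairs, and the overlap counts under other scaling or without ND replicate 1, were chosen after seeing the data.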

Additional observations from a re-analysis of the deposited data

How the results depend on the processing

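Of the 16 member fold changes, 11 kept their direction under every alternative run, and of 251 alternative values 217 kept direction and side of the threshold, 19 were no longer past it, 4 became past it and 11 changed sign. Members called in TJ against HFD were 2 in the fit as reported and 0 with no filter, with all 12 libraries in 1 fit, with a replicate block and with the length trend removed, and 0 to 2 when 1 library was left out (0 without any HFD replicate, TJ replicate 1 or TJ replicate 2, and 2, Lck and Cd79b, without TJ replicate 3). No member was called in the other 3 comparisons under any alternative. Companion genes called in HFD against ND were 3, and 0 with the replicate block and 0 to 6 with 1 library left out (6 without ND replicate 1, 1 without ND replicate 2 or 3, 0 without any HFD replicate). Over all genes the calls in HFD against ND were 255, and 0 with the replicate block or without any HFD replicate, 24 without ND replicate 2, 23 without ND replicate 3 and 2098 without ND replicate 1. Companion genes called in GT against HFD were 0, and 1 with a pseudocount of 0.1, 1 under quantile normalization and 0 to 3 with 1 library left out (3 without GT replicate 1). Companion genes called in TJ against HFD were 8, and 1 with no filter, 4 with a mean of at least 0.1 FPKM, 0 with all 12 libraries, 5 with the replicate block, 4 with the length trend removed and 0 to 10 with 1 library left out (0 without any HFD replicate or TJ replicate 1). Under quantile normalization members that did not overlap were 0 instead of 2 in HFD against ND and 2 instead of 0 in GT against HFD, and in TJ against HFD they were 6, 7 with median-of-ratios scaling and 8 under quantile normalization. The causes of these changes were not tested.

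The 11 changes of sign were as follows. In HFD against ND, Nkg7 (0.06) was -0.10 with median-of-ratios scaling and -0.17 to 0.19 with 1 library left out (-0.17 without ND replicate 3), and Cd79b (-0.16) was 0.30 with the length trend removed and -0.52 to 0.48 with 1 library left out (0.48 without ND replicate 1). In GT against HFD, Nkg7 (0.02) was -0.0096 with a pseudocount of 0.1, and -0.15 to 0.25 with 1 library left out (-0.02 without HFD replicate 2, -0.15 without GT replicate 1, -0.06 without GT replicate 2), and Cd79b (-0.13) was 0.12 under quantile normalization and 0.0068 to -0.25 with 1 library left out (0.0068 without GT replicate 3). In TJ against GT, Cd3g (0.40) was -0.067 with the length trend removed. Over all genes, calls in TJ against HFD were 2366, of which 949 were higher, against 1174 of 2344 with median-of-ratios scaling, 1543 of 2694 under quantile normalization, 382 with no filter, 1198 with the replicate block, 1528 with the length trend removed, 1 with all 12 libraries and 0 without any HFD replicate or TJ replicate 1. The median fold change of all genes in TJ against HFD was -0.14 as reported, -0.03 with median-of-ratios scaling and 0.03 under quantile normalization. Same-numbered libraries did not pair in GT against HFD, TJ against HFD or TJ against GT, where the lowest correlations were -0.0698, -0.0514 and -0.213, and in HFD against ND, taken as paired because every correlation was above 0.1, replicate 3 of HFD correlated better with replicate 2 of ND (0.626) than with its own number (0.122). The members rest on few fragments per library and 3 libraries a group, which limits the precision of every value.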

Other observations

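Of the 6 dendritic cell genes listed, 3 could be tested in TJ against HFD and 0 were called, with log2 fold changes from -0.03 (Clec9a) to 0.77 (Cd209a). With genes of a mean of at least 0.1 FPKM in the fit all 6 could be tested, 0 were called, and the median was 0.08. With the length trend removed 1 was called, Zbtb46, which was higher by 0.80 (adjusted p = 0.0349). Their summed level was 8.86 to 19.7 FPKM in ND (19.2 to 19.7 without replicate 1), 11.5 to 14.9 in HFD, 17.1 to 21.1 in GT and 17.4 to 24.8 in TJ. Zbtb46 (6.08, 6.03 and 5.49 FPKM in HFD) and Cd209a (4.28, 4.11 and 2.06 FPKM in HFD) made up most of these sums, and Cd209a was 0.137 FPKM in ND replicate 1.

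Ighm, the heavy chain constant gene of IgM, and Igkc, the kappa light chain constant gene, were among the B cell genes of the highest level. Ighm measured 25.2, 170 and 92.7 FPKM in ND, 296, 276 and 275 in HFD, 288, 328 and 359 in GT, and 292, 160 and 325 in TJ, and Igkc measured 162, 99.0 and 103 FPKM in ND, 66.7, 86.2 and 48.5 in HFD, 44.9, 49.6 and 120 in GT, and 54.7, 143 and 54.3 in TJ. Neither was called in any of the 4 comparisons with all libraries in. Without ND replicate 1, Ighm was called higher in HFD than in ND. These 2 genes were chosen after their values were seen.

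The mesothelial genes, which line the fat pad surface, had a summed level of 22.3 to 58.7 FPKM in ND (22.3 to 33.4 without replicate 1) and 1.68 to 14.8 FPKM over the HFD, GT and TJ libraries. Of the 4 tested in HFD against ND, 0 were called, and Krt19 was the lowest at -2.44. Without ND replicate 1, 3 of the 4 were called lower, where 15.4% of all genes tested were called in either direction. They were Upk3b (-1.57, adjusted p = 0.0297), Lrrn4 (-1.51, adjusted p = 0.0207) and Msln (-1.44, adjusted p = 0.02), and Krt19 was -1.46 (adjusted p = 0.198). Lrrn4 averaged under 1 FPKM in HFD and passed the filter only through ND, the group where it was high. Epididymis and testis germ cell genes gave 0 calls in all 4 comparisons with all libraries in, and 1 call in HFD against ND without ND replicate 1, Gpx5, at -2.35 (adjusted p = 0.0124). Gpx5 was under 1 FPKM in every HFD library and passed the filter only through ND, the group where it was high. The germ cell sum also reached 1931 FPKM in HFD replicate 1 and 2749 FPKM in ND replicate 3 besides ND replicate 1.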
